A study of Mus musculus with 6 samples.

Results

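The genes described here are 10 heavy chain genes of the mouse major histocompatibility complex (MHC) class I, 2 of them classical (H2-K1 and H2-D1) and 8 nonclassical (H2-T10, H2-T22, H2-T23, H2-T24, H2-Q4, H2-Q6, H2-Q7 and H2-M3). They were taken by gene name from the deposited tables, where each of the 10 names matched 1 of 51826 rows, and all 10 were among the 18345 genes with enough counts to be tested. Cortical RNA was sequenced from 3 irradiated Lgmn+/+ mice (Lgmn+/+-IR) and 3 irradiated Lgmn-/- mice (Lgmn-/--IR). All were male BALB/c mice 6 to 8 weeks old, and all had received whole-brain X-ray irradiation in a single dose of 10 Gy and were sampled on day 3. Lgmn encodes asparagine endopeptidase, a lysosomal protease. The knockout line came from a single targeted ES cell clone, injected into BALB/c blastocysts, and was bred through Flp and Cre mice. The strain of the ES cells, the Cre line and the strains of the Flp and Cre mice are not given in the sources used here, and non-irradiated mice were not analysed here.

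A class I heavy chain pairs with the light chain B2m at the cell surface and displays a short peptide to CD8 T cells or to receptors of natural killer cells. The genes are carried in the H2 region of chromosome 17 and differ in sequence between strains more than most other genes. Neurons, glia and endothelial cells of the brain express them at a low level at rest, and interferons raise their transcription. The BALB/c strain carries the H2-d haplotype and the reference genome GRCm38 is of the C57BL/6J strain, which carries H2-b, so reads of BALB/c alleles were counted on genes of another haplotype. H2-L, a further classical gene of H2-d, is not a row of the tables and is not analysed here. Whether the Lgmn-/- mice had the same H2 haplotype as the Lgmn+/+ mice was not tested.

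The sequences in front of the genes show which members share the known class I control elements. RefSeq promoter windows on GRCm38.p6, from 250 bases before the start site to 50 bases after it, were at hand for 8 of the 10 genes, all but H2-T10 and H2-T24. The 30 bases that end with the core letters of the interferon-stimulated response element follow, each read 5′ to 3′ on the strand of the gene, with every match to a searched motif in capitals.
H2-K1: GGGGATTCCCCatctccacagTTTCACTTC
H2-D1: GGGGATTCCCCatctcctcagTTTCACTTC
H2-Q4: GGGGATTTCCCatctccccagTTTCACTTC
H2-Q6: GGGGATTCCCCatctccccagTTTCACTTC
H2-Q7: tggggattcccatctccccagTTTCACTTC
H2-M3: attcccccatttcctctgaggTTTCACTTC
H2-T22: gagagtccctaATTGGcttagTTTCACTTT
H2-T23: catgaaaagggatcctactgcTTTCTCTTT
They lie at chr17:34000429-34000458 (minus strand) for H2-K1, chr17:35262923-35262952 (plus) for H2-D1, chr17:35379443-35379472 (plus) for H2-Q4, chr17:35424677-35424706 (plus) for H2-Q6, chr17:35439021-35439050 (plus) for H2-Q7, chr17:37270112-37270141 (plus) for H2-M3, chr17:36042925-36042954 (minus) for H2-T22 and chr17:36032817-36032846 (minus) for H2-T23. All are of the reference strain, not of BALB/c.

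Motifs were searched on both strands. The kappaB site of enhancer A was read from the H2-D1 window (GGGGATTCCCC), and H2-K1 and H2-Q6 hold the same letters, as do 0.0304% of 32851 promoters. With N at the base where H2-Q4 differs (GGGGATTNCCC), a pattern that takes in the former and fits H2-Q4 by its making, the share was 0.0761%. The H2-K1 and H2-Q6 elements each differ from that of H2-D1 at 1 of the 30 bases, and that of H2-Q4 at 2. The H2-Q7 element holds GGGGATTCCC, the H2-D1 site less its last C, ahead of the same core, and this was not scored as a match. The response element core TTTCNNTTT was found in H2-T22 and H2-T23 and in 3466 of the 32851 promoters, and its form with C as the last base, TTTCNNTTC, in the other 6 genes and in 7.52% of promoters. The X2 box letters TGACGC were found before the start site on the strand of the gene in H2-K1, H2-D1 and H2-M3. In H2-Q4 they were found only on the opposite strand, at position 31 after the start site. A match on either strand was found in 7.4% of promoters. The Y box letters CCAAT were found in all 8 genes (37.4% of promoters). H2-K1 and H2-D1 thus hold the same kinds of match in the reference strain. The part of these elements in the differences between genotypes given below was not tested. H2-T23 and H2-T22 share the core ending in T and have no kappaB match, which says only that these letters are not in the window.

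**Figure D1:**
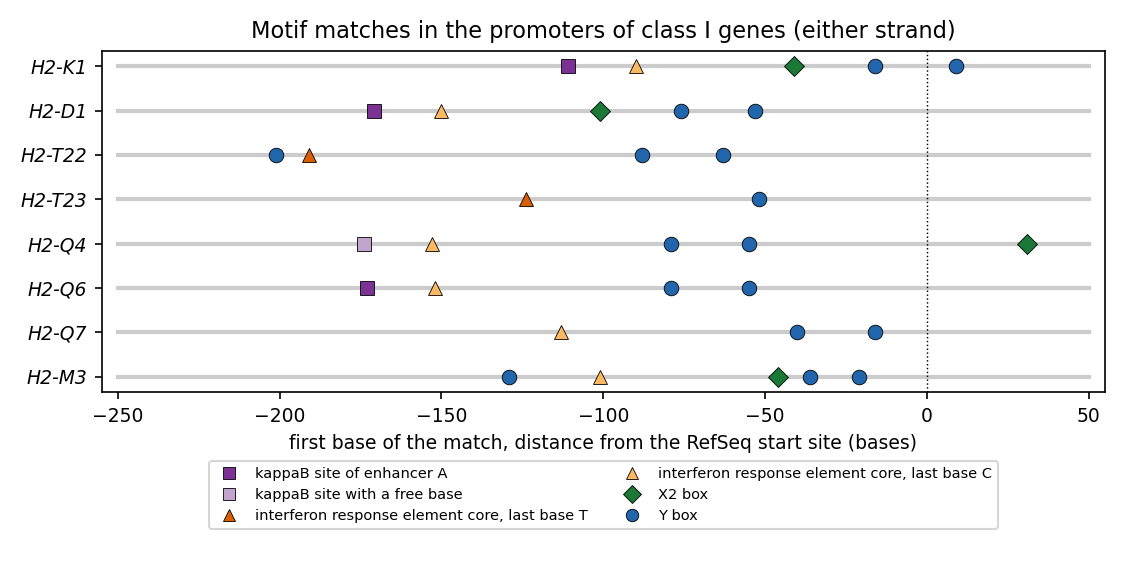
Matches to the searched motifs in the promoter windows of the 8 genes with a RefSeq entry. The horizontal axis is the distance in bases from the RefSeq start site (dotted line) to the first base of a match on either strand, and each symbol is 1 match. The kappaB match and the response element core ending in C stand side by side in H2-K1, H2-D1, H2-Q4 and H2-Q6. H2-Q7 holds the kappaB letters less the last C there, which is not drawn as a match. More than 1 Y box match is held by 7 of the 8 genes, the exception being H2-T23.

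Some members are close copies of each other, which bears on how reads were counted. Over the 45 pairs of GENCODE M21 coding sequences the identity was 67.1% to 96.9% with a median of 76%. The closest pair was H2-T10 and H2-T22 at 96.9%, followed by H2-Q6 and H2-Q7 at 95.4%, and H2-K1 and H2-D1 were identical at 92% of aligned bases. The 60 coding bases in which each of the first 2 pairs differ most follow, with differing bases in capitals.
H2-T10: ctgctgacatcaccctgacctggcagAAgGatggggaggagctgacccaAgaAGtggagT
H2-T22: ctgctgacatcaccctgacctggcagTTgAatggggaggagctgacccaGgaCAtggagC
H2-Q6: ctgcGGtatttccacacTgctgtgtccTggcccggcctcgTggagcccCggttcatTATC
H2-Q7: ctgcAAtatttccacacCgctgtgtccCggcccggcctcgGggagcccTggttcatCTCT
The stretch lies in exon 5 of H2-T10 (chr17:36119324-36119383, minus strand of GRCm38) and exon 4 of H2-T22 (chr17:36040613-36040672, minus), with 7 differences, and in exon 2 of H2-Q6 (chr17:35425119-35425178, plus) and of H2-Q7 (chr17:35439463-35439522, plus), with 10. Elsewhere H2-T10 and H2-T22 have an identical coding run of 134 bases, and H2-Q6 and H2-Q7 one of 265. Of all windows of 100 bases in annotated transcripts, 7.06% of those of H2-T10 also occur in another gene, in each case H2-T22. The share was 8.86% for H2-T22, 10.8% for H2-Q6, 12% for H2-Q7, 3.59% for H2-D1, 3.15% for H2-T23, 2.16% for H2-Q4 and 0.957% for H2-K1, and no window of H2-T24 or H2-M3 was shared. The counts of the H2-Q6 and H2-Q7 pair and of the H2-T10 and H2-T22 pair are therefore uncertain to the extent that a read fell in such a window, and how reads with several positions were counted is not given in the sources used here.

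The libraries held 41874462 to 46829441 counts. The counts were scaled to library size with edgeR's TMM method, which gives the CPM used here, and tested with its quasi-likelihood test with Benjamini-Hochberg adjustment over the 18345 genes. A differentially expressed gene (DEG) has an adjusted p below 0.05 and a log2 fold change (Lgmn-/--IR over Lgmn+/+-IR) beyond 1 in either direction, the thresholds of the methods. The FPKM, deposited beside the counts, divides by transcript length, so only FPKM were used to set one gene beside another. Lgmn itself had 130, 129 and 127 CPM in Lgmn+/+-IR mice, against 83.4, 70.4 and 93.6 CPM in Lgmn-/--IR mice (log2 fold change −0.64 ± 0.12, the standard error, SE, with adjusted p = 0.0315), so the transcript was lower in each knockout library but not lost. A count over the whole gene does not measure the deleted part alone, and whether reads of that part were lost was not tested. The 10 heavy chain genes were chosen by name and with their fold changes in this same contrast in view, so their differences are a description, and the p-values from the fit over all genes support nothing further.

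The Lgmn-/--IR libraries held far more erythrocyte transcript than the controls, most in replicate 1 and least in replicate 3, with values given beside the cell markers. In bulk tissue fewer cells of a type and less RNA per cell cannot be told apart.

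Of the 10 genes, H2-D1 and H2-T10 were higher and H2-T23 was lower past both thresholds. The 3 calls stand beside 2.06% of all genes tested (0.959% higher, 1.1% lower), and the contrast that chose the genes gives that comparison no weight. The Lgmn-/--IR libraries were all above the Lgmn+/+-IR libraries for H2-D1, H2-T10, H2-Q6 and H2-Q7, and all below them for H2-T22, H2-T23, H2-T24 and H2-M3, in CPM and in FPKM alike, while those of H2-K1 and H2-Q4 overlapped. That makes 8 genes whose libraries do not overlap, and 25.7% of all genes tested did the same in CPM (12.4% higher, 13.3% lower) and 24.8% in FPKM. With other tests the calls numbered 5 with DESeq2 (3.23% of genes), 3 under a replicate block (0.758%), and 3, 4 and 4 with limma on log2(FPKM + pseudocount) for pseudocounts of 1, 0.1 and 0.01 (0.954%, 2.13% and 1.96%). The median log2 fold change of the 10 genes was 0.45, against −0.01 over all genes tested.

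**Figure D2:**
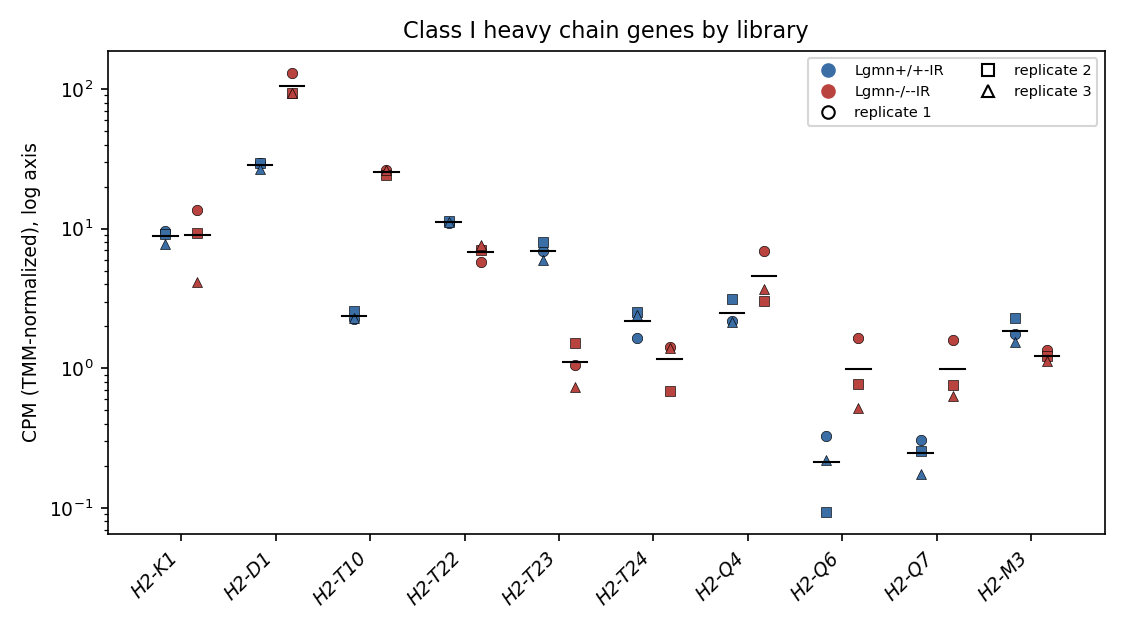
TMM-normalized CPM of the 10 class I heavy chain genes in each library, on a log axis. Blue symbols are Lgmn+/+-IR and red symbols Lgmn-/--IR libraries, the shape gives the replicate, and bars mark the mean of 3. The red symbols of H2-D1 (93.1 to 131 CPM) and H2-T10 (24.1 to 26.3 CPM) lie above the blue ones, those of H2-T23 (0.729 to 1.53 CPM) lie below, and those of H2-K1 spread to both sides.

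The classical genes H2-K1 and H2-D1 display peptides of the cell's own proteins to CD8 T cells. H2-D1 had 1254, 1260 and 1214 counts in Lgmn+/+-IR mice, against 5832, 4326 and 4088 in Lgmn-/--IR mice. That is 28.5 ± 1.57 against 106 ± 22 CPM (SD, n = 3 each), 3.71-fold higher, with no overlap and with the highest value in Lgmn-/--IR replicate 1 (log2 fold change 1.89 ± 0.16 SE, adjusted p = 0.00133 in edgeR's quasi-likelihood test). The FPKM gave 13.2 ± 0.961 and 46.3 ± 10, a 3.52-fold difference. H2-D1 lies at chr17:35262730-35267499 of GRCm38, plus strand.

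H2-K1 (chr17:33996017-34000347, minus strand) had 411, 392 and 356 counts in Lgmn+/+-IR mice, against 609, 433 and 181 in Lgmn-/--IR mice. One knockout library was above all controls, one among them and one below, so the groups overlapped. The means were 8.87 ± 0.935 and 9.05 ± 4.8 CPM (log2 fold change 0.03 ± 0.38 SE, adjusted p = 0.975). The estimate was −0.40 without Lgmn-/--IR replicate 1 and 0.38 without Lgmn-/--IR replicate 3, so its sign was set by which library was kept. The ratio of H2-D1 to H2-K1 in FPKM was 2.51, 2.6 and 2.78 in Lgmn+/+-IR mice, against 7.6, 7.96 and 17 in Lgmn-/--IR mice, so the classical pair was less even in every knockout library.

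Of the genes of the T segment, H2-T10 and H2-T22 encode proteins that hold no peptide and are recognized by some gamma delta T cells. The annotation lists H2-T10 (chr17:36115876-36121465, minus strand) as a polymorphic pseudogene, a class for genes that are intact in some strains and broken in others. H2-T10 had 97, 110 and 104 counts in Lgmn+/+-IR mice, against 1163, 1119 and 1156 in Lgmn-/--IR mice. This was the steepest rise of the 10 genes and the least variable among knockout libraries, from 2.38 ± 0.167 to 25.5 ± 1.25 CPM (10.7-fold, log2 fold change 3.42 ± 0.12 SE, adjusted p = 1.89e-05). In FPKM it was 8.53-fold, from 0.869 ± 0.11 to 7.42 ± 0.366. The highest knockout library exceeded the lowest by 1.09-fold, where H2-K1 spread 3.32-fold and H2-D1 1.41-fold.

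H2-T22 (chr17:36037128-36042747, minus strand) had 463, 488 and 504 counts in Lgmn+/+-IR mice, against 257, 327 and 334 in Lgmn-/--IR mice, the opposite direction to its near copy. The groups did not overlap, at 11.1 ± 0.274 and 6.81 ± 0.934 CPM, 1.63-fold lower, and the change was under the fold threshold (log2 fold change −0.71 ± 0.14 SE, adjusted p = 0.0435). In FPKM it was 2.09-fold lower, from 4.31 ± 0.12 to 2.06 ± 0.289. H2-T22 exceeded H2-T10 by 5.03, 4.48 and 5.47 times in FPKM in Lgmn+/+-IR mice and was 0.221, 0.298 and 0.319 of it in Lgmn-/--IR mice, so the order of the pair was turned in every library. Summed over both genes, the counts were 13.5 ± 0.432 and 32.4 ± 1.44 CPM, and the sums did not overlap. That sum is free of how reads that both could take were split only if none were dropped or counted for both. How such reads were treated is not given in the sources used here. H2-T22 also shares windows with genes outside the pair.

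H2-T23 encodes the heavy chain of Qa-1, which presents leader peptides of other class I chains to the inhibitory CD94/NKG2A receptor of natural killer cells. It lies at chr17:36029773-36032855, minus strand, and had 293, 343 and 272 counts in Lgmn+/+-IR mice, against 47, 71 and 32 in Lgmn-/--IR mice. It fell from 6.95 ± 1.02 to 1.11 ± 0.402 CPM, 6.29-fold (log2 fold change −2.65 ± 0.28 SE, adjusted p = 0.00454), and by FPKM 7.83-fold. H2-T24 (chr17:36005695-36020560, minus strand), a less studied nonclassical gene, had 71, 108 and 109 counts in Lgmn+/+-IR mice, against 63, 32 and 61 in Lgmn-/--IR mice. Its libraries did not overlap after scaling (1.66 to 2.52 against 0.689 to 1.42 CPM), with a log2 fold change of −0.91 ± 0.33 SE (adjusted p = 0.205) that did not pass the test. The 4 T genes together came to 22.6 ± 1.62 and 34.6 ± 1.36 CPM, 1.53-fold, and 1.03-fold in FPKM. Per length the T segment total of each Lgmn-/--IR library lay within the range of the Lgmn+/+-IR libraries (9.46 to 11.2 FPKM), while its genes moved apart.

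The Q segment genes H2-Q6 and H2-Q7 encode Qa-2, a class I molecule held to the membrane by a lipid anchor. H2-Q6 (chr17:35424850-35430055, plus strand) had 14, 4 and 10 counts in Lgmn+/+-IR mice, against 73, 36 and 23 in Lgmn-/--IR mice. H2-Q7 (chr17:35439155-35443773, plus strand) had 13, 11 and 8 against 71, 35 and 28. Both were low and both were above the controls in every knockout library. The log2 fold changes were 2.18 ± 0.59 SE (adjusted p = 0.107) and 2.01 ± 0.46 SE (adjusted p = 0.0688), which did not pass edgeR's test, and both were DEGs with DESeq2 (adjusted p = 0.0143 and 0.00716). Summed, since they share windows, H2-Q6 and H2-Q7 had 0.46 ± 0.152 and 1.98 ± 1.11 CPM. Both also share windows with genes outside the pair, and H2-Q7 shares more with H2-Q10 (270) than with H2-Q6 (166). H2-Q4 (chr17:35379617-35385290, plus strand) had 93, 135 and 98 counts in Lgmn+/+-IR mice, against 309, 142 and 162 in Lgmn-/--IR mice. Its libraries overlapped at the lower end (2.15 to 3.15 against 3.06 to 6.96 CPM), with a log2 fold change of 0.87 ± 0.34 SE (adjusted p = 0.235). Lgmn-/--IR replicate 1 was the highest library for all 3 Q genes, and without it the log2 fold changes were 0.44 for H2-Q4, 1.59 for H2-Q6 and 1.5 for H2-Q7.

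H2-M3 (chr17:37270220-37274484, plus strand) presents peptides with an N-formyl group, such as those of bacteria and mitochondria. It had 75, 98 and 70 counts in Lgmn+/+-IR mice, against 60, 57 and 49 in Lgmn-/--IR mice. The CPM did not overlap, at 1.86 ± 0.385 and 1.23 ± 0.117, and the log2 fold change of −0.59 ± 0.23 SE (adjusted p = 0.234) did not pass the test.

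In FPKM, H2-D1 was the highest of the 10 genes in both genotypes and made up 42.7 ± 1.36% of their sum in Lgmn+/+-IR mice and 70.6 ± 1.06% in Lgmn-/--IR mice. In Lgmn+/+-IR mice it was followed by H2-K1 (5.03), H2-T22 (4.31) and H2-T23 (4.08 FPKM), whose ranges overlapped from one to the next. H2-Q4 (1.2), H2-M3 (1.16), H2-T24 (0.894) and H2-T10 (0.869 FPKM) came next and overlapped likewise, and H2-Q7 and H2-Q6 stood last, apart from H2-T10. In Lgmn-/--IR mice H2-T10 took the next place after H2-D1 at 7.42 FPKM, overlapping H2-K1 at 5.08, H2-Q4 and H2-T22 followed at 2.13 and 2.06 FPKM, and H2-T23 stood in a last group with H2-M3, H2-T24, H2-Q6 and H2-Q7 at 0.405 to 0.74 FPKM. The share of H2-T10 went from 2.81 ± 0.145% to 11.6 ± 1.85%, that of H2-T22 from 14 ± 1.05% to 3.3 ± 1.08%, that of H2-T23 from 13.1 ± 1.01% to 0.807 ± 0.41%, and that of H2-K1 from 16.3 ± 1.06% to 7.42 ± 2.79%. The share of H2-Q4, at 3.86 ± 0.673% and 3.16 ± 0.797%, overlapped.

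**Figure D3:**
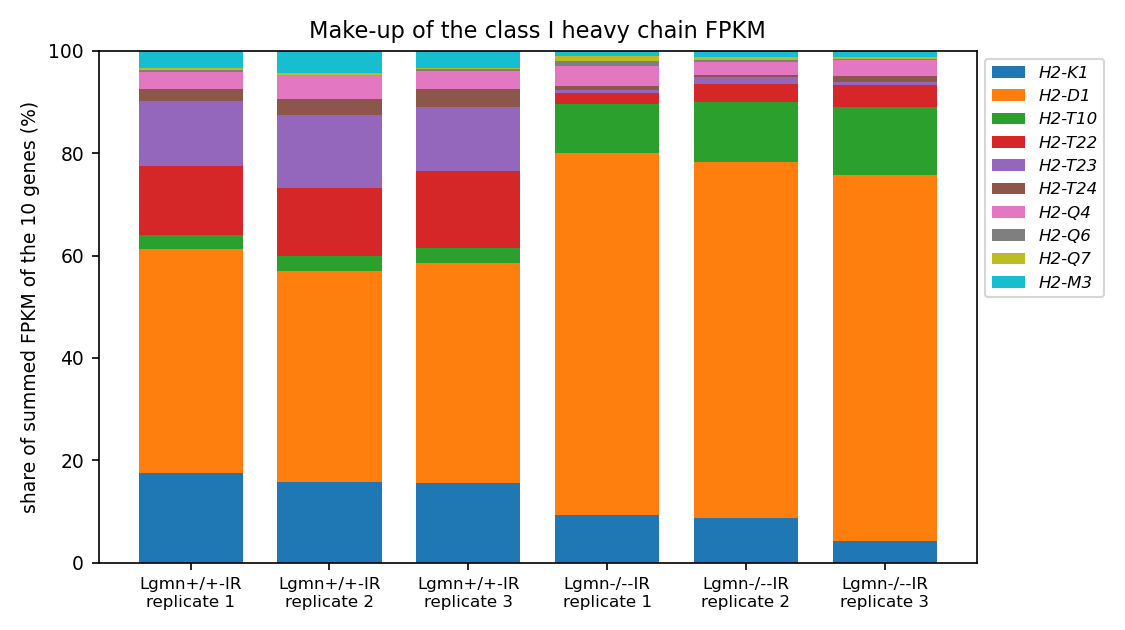
Share of each gene in the summed FPKM of the 10 class I heavy chain genes, in percent, for each library. H2-D1 takes 41.1 to 43.8% in the Lgmn+/+-IR libraries and 69.5 to 71.6% in the Lgmn-/--IR libraries, H2-T10 takes 2.68 to 2.97% and 9.62 to 13.3%, and the bands of H2-T22 and H2-T23 narrow.

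Summed over the 10 genes the Lgmn+/+-IR libraries had 65.3, 68.9 and 60.4 CPM and the Lgmn-/--IR libraries 191, 142 and 139 CPM, 2.43-fold higher (2.12-fold in FPKM). H2-D1 carried most of the difference, since without it the ratio was 1.42 in CPM and 1.09 in FPKM. Without H2-D1 and H2-T10 it was 0.763 in CPM and 0.706 in FPKM, with 31.4 to 36.9 CPM in Lgmn+/+-IR mice and 19.8 to 33.5 CPM in Lgmn-/--IR mice.

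Within the Lgmn-/--IR mice the members did not follow one order of libraries. Replicate 1 was the highest for H2-D1, H2-K1, H2-Q4, H2-Q6, H2-Q7, H2-T24 and H2-M3, and replicate 3 the lowest for these genes save H2-Q4 and H2-T24. H2-T23 was highest in replicate 2 and lowest in replicate 3. H2-T22 went the other way, with 5.79, 7.04 and 7.61 CPM, and H2-T10 was flat. B2m, which encodes the light chain, had 43.6, 43.6 and 40.2 CPM in Lgmn+/+-IR mice and 104, 53.1 and 106 in Lgmn-/--IR mice, so it was lowest in replicate 2, unlike H2-D1 or H2-K1. Its log2 fold change was 1.05 ± 0.25 SE and did not pass edgeR's test (adjusted p = 0.0786), while with DESeq2 it was a DEG (1.06 ± 0.26 SE, adjusted p = 0.00114). Without Lgmn-/--IR replicate 2 it was also a DEG in edgeR's test, at 1.31 (adjusted p = 0.00239). In the other 14 of 16 alternatives B2m was not a DEG, with 0.98 under the replicate block (adjusted p = 0.185 in edgeR's test).

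The count and FPKM tables differed for part of the T segment. The quotient 1000 × CPM / FPKM is in bases. It also carries the difference in library scaling between the count and FPKM tables, which is common to all genes of a library. Apart from that, a gene whose reads fall on the same transcripts in both genotypes has about the same value in both. For H2-T22 it was 2581 ± 19.7 bases in Lgmn+/+-IR mice and 3306 ± 67.6 in Lgmn-/--IR mice. For H2-T10 it was 2747 ± 175 and 3448 ± 222 bases, and for H2-T23 1708 ± 27.2 and 2199 ± 240, with no overlap in any of the 3. The annotated exons of these genes cover 3414, 3419 and 2889 bases, and their longest annotated transcripts have 3062, 3389 and 2642 bases. The Lgmn-/--IR means of H2-T22 and H2-T10 exceed the longest transcript, so the quotient is not a plain transcript length. The quotient of H2-K1 was 1767 ± 38.6 and 1786 ± 58.8 bases, and the group means of the next 4 genes were closer than in the T genes above, at 2084 and 2142 bases for H2-Q4, 1611 and 1672 for H2-M3, 2456 and 2348 for H2-T24 and 2167 and 2291 for H2-D1. On the log2 scale the count fold change less the FPKM fold change (pseudocount 0.01) was 0.34 for H2-T10, 0.36 for H2-T22, 0.39 for H2-T23 and 0.43 for H2-Q7, against a median size of 0.05 over all genes tested. These gaps were larger than those of 95.2% to 96.6% of genes. The directions of H2-T10, H2-T22 and H2-T23 were the same in both tables, and the part that other transcripts, overlapping genes or alleles have in the gap was not tested.

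**Figure D4:**
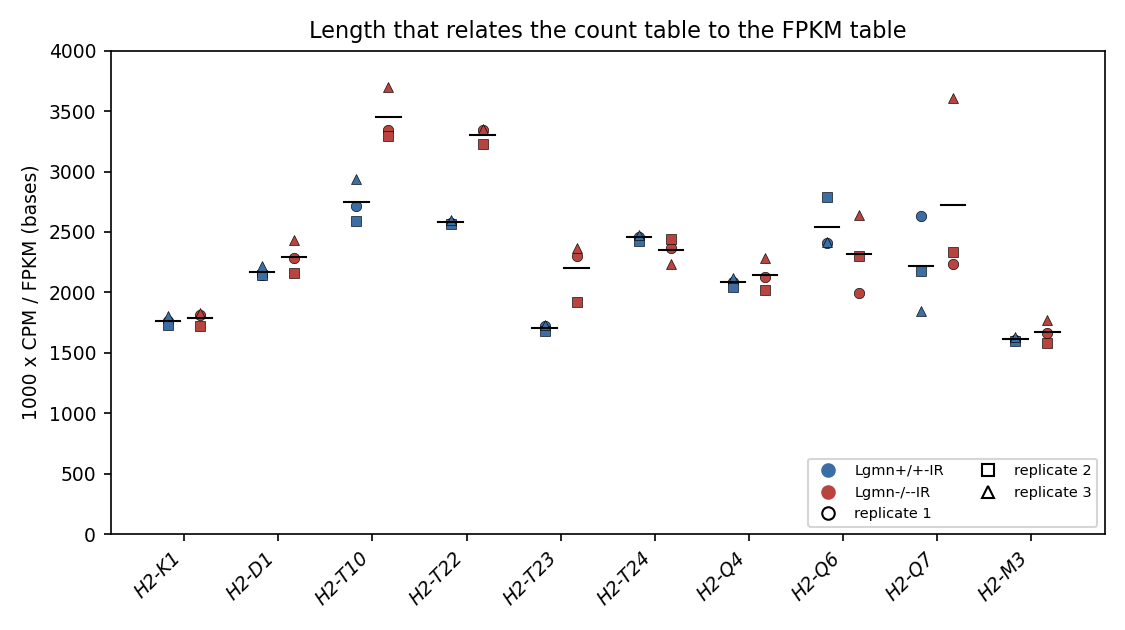
Length in bases that relates the count table to the FPKM table (1000 × CPM / FPKM) for each class I heavy chain gene and library. Blue symbols are Lgmn+/+-IR and red symbols Lgmn-/--IR libraries, the shape gives the replicate, and bars mark the mean of 3. The red symbols of H2-T10, H2-T22 and H2-T23 lie above the blue ones, while those of H2-K1 and H2-Q4 lie among or close to them, and H2-Q6 and H2-Q7 scatter.

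Along chromosome 17 the T genes that were lower and the T gene that was higher are neighbors. H2-T24, H2-T23 and H2-T22 follow each other, and H2-T10 lies beyond them. The nearest tested genes on both sides of H2-T10 were DEGs in opposite directions. BC023719, an antisense transcript that overlaps H2-T10 over 1246 bases, had 0 counts in all Lgmn+/+-IR mice, against 101, 24 and 88 in Lgmn-/--IR mice (adjusted p = 0.0307). Gm10499, a transcribed pseudogene on the other side, was lower by a log2 fold change of −3.93 ± 0.64 SE (adjusted p = 0.0225). Beyond H2-T22 the protein-coding Gm11127, which has windows of 100 bases in common with H2-D1, H2-T22 and H2-T23, was a DEG with 78, 55 and 52 counts in Lgmn+/+-IR mice, against 7, 6 and 0 in Lgmn-/--IR mice (log2 fold change −3.84 ± 0.67 SE, adjusted p = 0.0286). Gm6034, whose span holds that of Gm11127, had 4, 0 and 4 against 23, 22 and 32 counts and did not pass the test (3.18 ± 0.67 SE, adjusted p = 0.0542). From H2-K1 to H2-M3, 9 of the 115 tested genes that are not among the 10 were DEGs, 5 higher and 4 lower. Of these, Hspa1b, Hspa1a, Msh5, Ly6g6e and Lst1 lie between H2-K1 and H2-D1, at 0.962 to 1.191 Mb from the outer end of H2-K1. The rest lie at 2.061 to 2.148 Mb. Of all genes tested 2.06% were DEGs (0.959% higher, 1.1% lower). Among 9 tested genes of a list of other class I and class I-like heavy chains, the pseudogene H2-T-ps close to H2-T10 was the DEG, with 5, 2 and 5 counts in Lgmn+/+-IR mice, against 43, 45 and 29 in Lgmn-/--IR mice (log2 fold change 3.20 ± 0.42 SE, adjusted p = 0.00953), and the median of the 9 was 0.02. Gm7030 lies over the whole span of H2-T10 on the same strand and had 0 counts in Lgmn+/+-IR mice, against 3, 2 and 4 in Lgmn-/--IR mice. A930015D03Rik runs antisense to H2-T22, H2-T23 and H2-T24, with 256, 226 and 221 counts in Lgmn+/+-IR mice, against 87, 4 and 219 in Lgmn-/--IR mice, so it was lowest in Lgmn-/--IR replicate 2, as was H2-T24 but neither H2-T22 nor H2-T23. Whether strand was used in counting is not given in the sources used here, so reads of such pairs cannot be told apart.

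**Figure D5:**
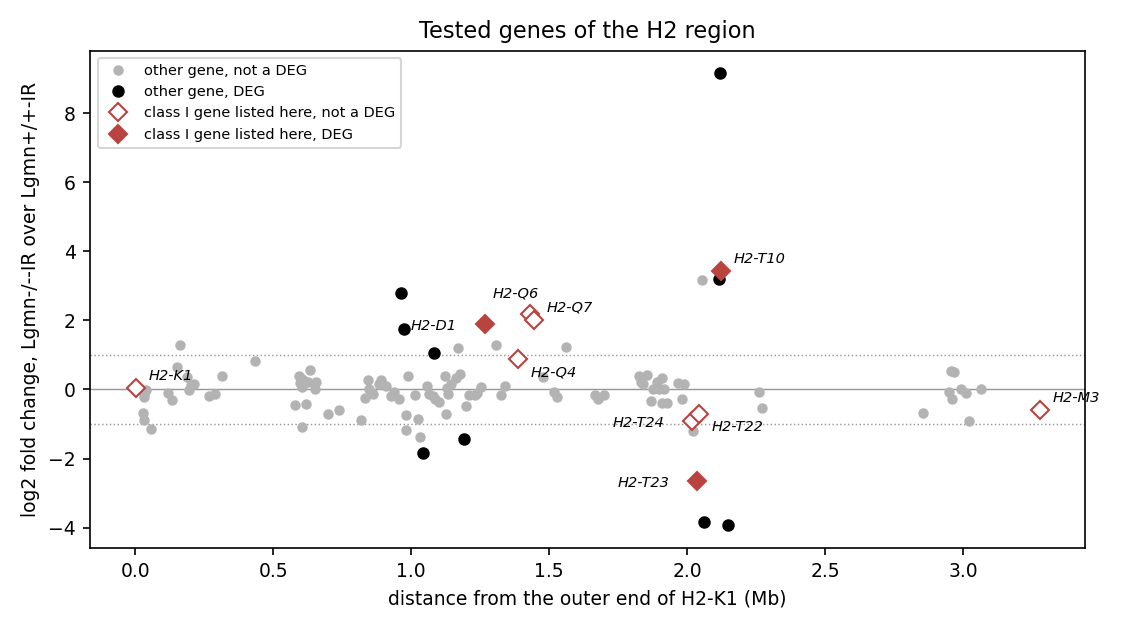
Log2 fold change (Lgmn-/--IR over Lgmn+/+-IR, edgeR) of the 125 tested genes from H2-K1 to H2-M3 against the distance in megabases from the outer end of H2-K1. Red diamonds are the 10 class I heavy chain genes and circles the other genes, filled red or black where a gene is a DEG, and dotted lines mark the fold threshold of 1. Near 2.12 Mb H2-T10 stands with H2-T-ps and BC023719 above the line while H2-T23, Gm11127 and Gm10499 stand below it, and the grey circle beside H2-T10 is Gm6034. The other black circles lie between H2-K1 and H2-D1. The value of BC023719, the highest point, is a fitted one over control libraries at 0 and is no measure of fold.

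Genes that act with the class I heavy chains were looked at as lists, beside the 2.06% of all genes tested that were DEGs. At that share a short list can hold 0 DEGs without differing from other genes. Of 14 genes of the light chain and of peptide loading (B2m, transporters, chaperones and immunoproteasome subunits), 0 were DEGs in edgeR's test and 2 had an adjusted p under 0.05, against 3.33% of all genes. These were the chaperones Calr (log2 fold change 0.73 ± 0.14 SE, adjusted p = 0.0356) and Pdia3 (0.61 ± 0.12 SE, adjusted p = 0.0403), and the median of the list was 0.14. An unadjusted p under 0.05 was found for 3 of the 14, where 18.6% of all genes tested had one, and with DESeq2 the list held 1 DEG, B2m. Of 20 tested regulators of class I transcription 0 were DEGs, and Stat2, which carries type I interferon signals, was at a log2 fold change of −0.55 ± 0.11 SE (adjusted p = 0.0496). Of the 20, 4 had an unadjusted p under 0.05 (again beside 18.6% of all genes) and 0 were DEGs with DESeq2. Ifng was at 0 in every library. Of 19 tested interferon stimulated genes 0 were DEGs and 13 had a negative log2 fold change, as did 51.7% of all genes, with Gbp3, a guanylate-binding protein gene, at −0.94 ± 0.18 SE (adjusted p = 0.0374). An unadjusted p under 0.05 was found for 5 of the 19, beside the same 18.6%, and DESeq2 called 1, Usp18, a deconjugase of the interferon-induced modifier Isg15, which had 1.63 ± 0.15 CPM in Lgmn+/+-IR mice and 0.54 ± 0.285 in Lgmn-/--IR mice. Their summed level was 75.5 to 90.7 CPM in Lgmn+/+-IR mice and 69.7 to 83.4 CPM in Lgmn-/--IR mice. The tables hold 19 of the listed receptor genes, of which 2 had enough counts to be tested, neither was a DEG with edgeR or DESeq2 (1 of the 2 had an unadjusted p under 0.05), and 12 were at 0 in every library, among them Klrc1 and Klrd1, which encode the Qa-1 receptor.

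Markers of other cells also moved with genotype. All 5 erythrocyte markers (Hba-a1, Hba-a2, Hbb-bs, Hbb-bt and Alas2) were DEGs, and their summed level was 7.59 to 15.8 CPM in the Lgmn+/+-IR libraries and 2273, 1728 and 234 CPM in Lgmn-/--IR replicates 1, 2 and 3. In the same order H2-D1 had 131, 93.2 and 93.1 CPM, and its log2 fold change was 1.71 without replicate 1, 1.98 without replicate 2 and 1.98 without replicate 3. Of 6 oligodendrocyte markers Mobp was a DEG and 5 had an adjusted p under 0.05, all lower, with a summed level of 3402 to 4124 CPM against 2243 to 2408 CPM. Of 12 leukocyte markers 2 were tested and they differed in direction. Ly6c2 was lower (6.73 to 12.4 against 0.754 to 1.03 CPM, log2 fold change −3.31 ± 0.28 SE, adjusted p = 0.00152), and Ptprc was at 1.19 ± 0.0996 and 1.47 ± 0.479 CPM (0.31 ± 0.29 SE, adjusted p = 0.614). The sum of the 12, at 8.06 to 13.7 against 2.12 to 4.23 CPM, was mostly Ly6c2 in the Lgmn+/+-IR libraries, S100a8 and S100a9 had at most 32 counts in a library, with the highest counts in Lgmn-/--IR replicate 1, and Cd3d, Cd3e, Ms4a1 and Nkg7 were at 0 in every library. The part of these cells in the class I differences was not tested. None of the 9 microglia markers (190 to 247 CPM summed), 8 endothelial markers (172 to 291), 8 neuron markers (10540 to 13921), 7 astrocyte markers (3958 to 4580) or 6 choroid plexus markers (29.7 to 50.9) was a DEG in edgeR's test or with DESeq2, and in that order 2, 2, 0, 4 and 0 of them had an unadjusted p under 0.05 (18.6% of all genes). The astrocyte marker Aqp4, a water channel gene, was the member of these 5 lists with an adjusted p under 0.05 (log2 fold change 0.55 ± 0.10 SE, adjusted p = 0.0374), and 6 of the 7 astrocyte markers had a positive log2 fold change. Of the microglia markers 7 were negative and 2 positive (summed 219 to 247 CPM in Lgmn+/+-IR against 190 to 220 CPM in Lgmn-/--IR libraries). Of the endothelial markers 1 was negative and 7 were positive (172 to 239 against 192 to 291 CPM). Neuron markers were 3 negative and 5 positive, and choroid plexus markers 2 and 4. Of all genes tested 51.7% were negative. The neuron and astrocyte markers of cortex were present in all 6 libraries.

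For 4 of the genes the profiles most like theirs were taken, by Euclidean distance of the centered log2 CPM over the 6 libraries. The class I heavy chain genes described here were left out as candidates. Nearest to H2-D1 was Ly6a (distance 0.242), with 150, 182 and 155 counts in Lgmn+/+-IR mice, against 786, 634 and 570 in Lgmn-/--IR mice (log2 fold change 1.99, adjusted p = 0.00175), before 6330549D23Rik (0.349) and Pmaip1 (0.353). Nearest to H2-T10 were Gm26683 (0.302) and Gm45653 (0.348), each at 0 counts in all Lgmn+/+-IR libraries, and AI506816 (0.444), with 13, 13 and 14 against 225, 202 and 183 counts. Nearest to H2-T23 were the pseudogenes Gm8730 (0.345) and Gm11703 (0.366) and Dnah6 (0.393), a dynein heavy chain gene with 207, 257 and 211 against 30, 53 and 30 counts. Nearest to H2-K1 were 6820431F20Rik (0.37), Tmed2 (0.398) and Gm10766 (0.422), which were all lowest in Lgmn-/--IR replicate 3. None of the 12 genes lies on chromosome 17. The heavy chain genes left out beforehand all lie there, so whether they would have been nearer in profile was not tested.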

How the data were processed

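Cortical polyA RNA of 3 Lgmn+/+-IR and 3 Lgmn-/--IR mice was analysed from 2 deposited tables, grouped by the sample labels. Reads had been trimmed (Trimmomatic 0.36) and aligned (HISAT2) by the authors, who deposited 1 raw, unscaled read count per gene and library. The deposited FPKM came from StringTie and divide by transcript length and depth. The submitters' processing notes name GRCm38, while the read counter, the annotation, the strand setting and the treatment of multi-mapped reads are not given in the sources used here. Positions came from GENCODE M21, which holds 51633 of the 51826 gene IDs.

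Count data were fitted in R 4.3.3 with edgeR 4.0.16 (TMM, filterByExpr by genotype, quasi-likelihood F-test without covariates, Benjamini-Hochberg adjustment over 18345 genes), with a standard error from the F statistic. DESeq2 1.42.0, limma 3.58.1 (voom, and log2(FPKM + pseudocount) with 1, 0.1 and 0.01), other scalings and filters, a replicate block and leaving out single libraries were alternatives. On simulated counts for 18345 genes with 200 changed, edgeR recovered 85.5% of the changed genes and 0 were given the wrong direction, while 6.04% of calls were false. For DESeq2 the figures were 87% recovered and 21.6% of calls false.

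The members and the gene lists were chosen with earlier results of these data known. The genes named are the 10 members, Lgmn and B2m, genes of the class I related and interferon lists with an adjusted p under 0.05, the nearest tested gene on each side of a member where it is a DEG, and the 3 genes nearest in profile to each of H2-K1, H2-D1, H2-T10 and H2-T23. Overlapping genes, Gm11127, Gm6034, Usp18, the DEGs between H2-K1 and H2-D1 and cell markers are named beside the values they touch, and were chosen after their values were seen. Between libraries of a genotype the chi-square averaged 28.7 to 102 over genes, and they were counted as separate samples. No label ties them to separate litters or batches, so p-values measure the spread between these samples. Reads carry no molecular identifiers, and 3 counts in a library correspond to 0.0646 to 0.0703 CPM. Shared sequence was counted over windows of 100 bases of GENCODE M21 transcripts, and motifs were searched in RefSeq promoters of 300 bases.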

Additional observations from a re-analysis of the deposited data

How the results depend on the processing

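Over 16 alternatives H2-D1, H2-T10 and H2-T23 stayed past both thresholds, with log2 fold changes of 1.71 to 1.98, 2.17 to 3.48 and −3.04 to −1.74. Past both thresholds were 3 of the 10 members in each alternative (3 without any single library), save 5 with DESeq2, which added H2-Q6 and H2-Q7, and 4 with log2(FPKM + 0.1) and log2(FPKM + 0.01), which added H2-T22 at −1.04 and −1.07. H2-K1 turned negative at −0.12 with limma-voom, −0.09, −0.14 and −0.14 with FPKM pseudocounts of 1, 0.1 and 0.01, −0.05 without Lgmn+/+-IR replicate 3 and −0.40 without Lgmn-/--IR replicate 1 (−0.40 to 0.38 over the omissions), with an adjusted p of 0.492 or more throughout. Over all genes the 377 DEGs became 228 with at least 10 counts in every library, 593 with DESeq2, 175 with log2(FPKM + 1), and 213 to 347 with a library left out. The summed CPM of the members was 2.43-fold higher, 2.17 to 2.57 with a library left out and 1.42 without H2-D1. The cause of these shifts was not tested, beyond the samples or genes each alternative leaves out.

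Same-numbered libraries are different mice, and no label pairs them. Their deviations from the group means correlate at −0.252, −0.0464 and −0.0276, none of them positive. Whether such libraries share a litter or batch was not tested. With the replicate number as a block 139 genes were DEGs, H2-D1, H2-T10 and H2-T23 among them (adjusted p = 0.0113, 0.00228 and 0.0132), H2-K1 was at −0.12, and H2-T22 and Lgmn had an adjusted p of 0.135 and 0.113. H2-T-ps had 0.0754, BC023719 0.0728 and Gm10499 0.13.

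The gap between the count and FPKM fold changes depends on the pseudocount. With 1 it was 0.12 for H2-K1, 0.17 for H2-D1, 1.25 for H2-T10, 0.09 for H2-T22, −0.90 for H2-T23, −0.57 for H2-T24, 0.40 for H2-Q4, 1.79 for H2-Q6, 1.69 for H2-Q7 and −0.29 for H2-M3. With 0.1 it was 0.10 for H2-D1, 0.46 for H2-T10, 0.33 for H2-T22, 0.17 for H2-T23, −0.15 for H2-T24, 0.15 for H2-Q4, 0.74 for H2-Q6, 0.88 for H2-Q7 and −0.02 for H2-M3. With 0.01 it was 0.10 for H2-D1, 0.34 for H2-T10, 0.36 for H2-T22, 0.39 for H2-T23, −0.03 for H2-T24, 0.11 for H2-Q4, −0.00 for H2-Q6, 0.43 for H2-Q7 and 0.03 for H2-M3. The depth limits H2-Q6 and H2-Q7 most, with 4 to 14 counts in the Lgmn+/+-IR libraries.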
